A study of Caenorhabditis elegans with 12 samples.

Results

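Neuropeptide genes of 2 families, the FMRFamide-like peptide genes (*flp*) and the neuropeptide-like protein genes (*nlp*), were followed in *Caenorhabditis elegans* mid-embryos that carry a mutation in *set-2*. The members are the 74 rows, of 45410 in each count file, whose name is *flp* or *nlp* followed by a number, that is 30 *flp* and 44 *nlp* genes. They were chosen by name and not by level. SET-2 is a methyltransferase of lysine 4 of histone H3, and the study asked which transcripts depend on it while axons grow out. In the first experiment, *set-2(tm1630)* mutants, whose *set-2* gene lacks 5′ sequence that includes the start codon, were compared with N2, the wild type. In the second, *set-2(zr2012)* mutants, in which an amino acid of the catalytic SET domain was substituted by CRISPR, were compared with N2 libraries of their own. Each of the 4 groups had 3 libraries, made from total RNA of whole hermaphrodite eggs kept for 4 h at 20°C after bleaching of young adults. Wild-type and mutant samples were prepared side by side from cultures described as independent. The *zr2012* line was made by injection into *pha-1(e2123)* mutants together with a template that repairs *pha-1*.

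FLP peptides end in an amidated arginine and phenylalanine pair and act mostly as transmitters and modulators between neurons and muscles. The *nlp* genes are a mixed family, defined by what they are not, since their peptides are neither FMRFamide-like nor insulin-like. Most are known from neurons, but *nlp-27*, *nlp-28*, *nlp-29*, *nlp-30*, *nlp-31*, *nlp-33* and *nlp-34* encode short peptides rich in glycine and tyrosine that are expressed in the epidermis, where *nlp-29* and *nlp-31* are known for antimicrobial activity and *nlp-29* for its response to fungal infection and wounding. Precursors of both families are cut by a proprotein convertase (EGL-3) and a carboxypeptidase (EGL-21), amidated, packed into dense-core vesicles and released onto G protein-coupled receptors.

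The libraries held from 14651380 to 53080992 counted reads, and 3 counts, taken here as the floor, were worth 0.0565 to 0.205 CPM (the counts of a gene relative to the size of the library, scaled between libraries by TMM, a trimmed mean of their ratios). *set-2* itself was barely detected. The *set-2(tm1630)* libraries, as labelled, held 3.09, 0.809 and 2.79 CPM of it, against 0.0458, 0.280 and 0.813 CPM in N2, and its log2 fold change of 2.48 did not pass the test (adjusted p = 0.0589). In the second experiment *set-2* had 0.366 to 0.515 CPM in *set-2(zr2012)* and 0.302 to 0.565 CPM in N2. Counts over a whole gene do not show the deletion or the substitution, so they do not check the labels. In each experiment 1 N2 library stood apart on these genes. In the first, N2 replicate 1 was the highest N2 library for 26 of 26 tested *flp* genes and 36 of 39 tested *nlp* genes, where 35.0% of all tested genes had their highest N2 value. In the second, N2 replicate 3 was the lowest N2 library for 25 of 26 *flp* and 38 of 40 *nlp* genes, against 46.2% of all tested genes. Results that rest on these libraries are given with and without them. Each allele was tested against its own N2 libraries with edgeR's quasi-likelihood test and Benjamini-Hochberg adjustment over all tested genes, and a gene was called lower or higher at an adjusted p under 0.05. These p-values measure only the spread between these samples.

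**Figure D1:**
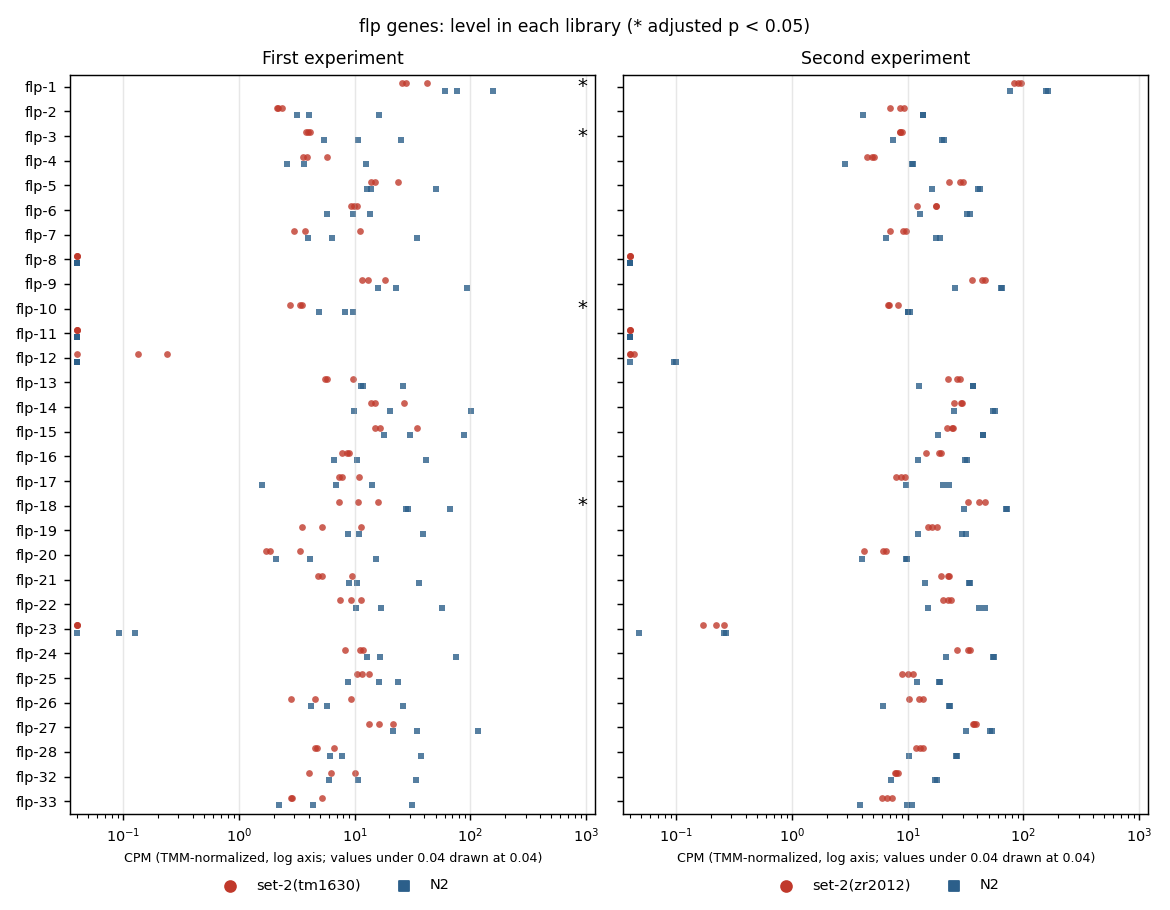
Level of each of the 30 *flp* genes in CPM (log axis), with the first experiment on the left and the second on the right. Each red circle is a *set-2* mutant library, each blue square an N2 library, and a star marks an adjusted p under 0.05. Mutant libraries lie close together, and in the first experiment 1 N2 library lies to the right of the others in most rows.

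In *set-2(tm1630)* embryos 4 *flp* genes were downregulated, *flp-1*, *flp-3*, *flp-10* and *flp-18*, and none was upregulated. Of the 30 *flp* genes 26 had enough reads to be tested. Among all 16332 genes tested, 16.0% were called lower and 14.4% higher, so in this fit the share of *flp* genes called lower is close to that of all genes. Other fits, given below, differ. At an unadjusted p under 0.05, 12 *flp* genes were lower and 0 higher. The share of all genes at an unadjusted p was not counted, here or below. Such counts therefore cannot be set against a background. The log2 fold change was negative for 24 of the 26, against 55.9% of all genes tested, and its median over the family was -1.42, against -0.21 over all genes. All 3 mutant libraries lay below all 3 N2 libraries for 8 of the 26, where 24.6% of all genes did so.

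*flp-1*, whose peptides come mainly from the AVK interneurons and shape sinusoidal movement, had 25.7, 42.3 and 27.6 CPM in *set-2(tm1630)*, against 158, 76.5 and 60.0 CPM in N2. The groups did not overlap, and the log2 fold change was -1.62 (SE 0.43, adjusted p = 0.0262 by edgeR). Without N2 replicate 1, the highest library, it was -1.11 (adjusted p = 0.0335). *flp-18*, which encodes ligands of the receptor NPR-1, had 7.27, 16 and 10.6 CPM in the mutant and 66.8, 28.8 and 27.8 CPM in N2. The 3 mutant libraries lay below all of N2 here too, with a log2 fold change of -1.87 (SE 0.47, adjusted p = 0.0230 by edgeR), or -1.34 (adjusted p = 0.0364) without N2 replicate 1.

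*flp-3* had 3.99, 3.77 and 4.09 CPM in *set-2(tm1630)*, against 25.3, 5.48 and 10.7 CPM in N2. The mutant libraries differed by less than 1 CPM while N2 replicate 1 was far above the other N2 libraries. Its log2 fold change was -1.80 (SE 0.56, adjusted p = 0.0420 by edgeR), and without N2 replicate 1 it was -1.03 and no longer passed (adjusted p = 0.0783). *flp-10*, whose peptides inhibit egg laying through the receptor EGL-6, had 3.36, 2.76 and 3.48 CPM in the mutant and 9.62, 8.23 and 4.88 CPM in N2. Here too no mutant library reached an N2 library, and the log2 fold change of -1.24 (SE 0.40, adjusted p = 0.0478 by edgeR) was -1.04 without N2 replicate 1 (adjusted p = 0.0762).

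Of the *flp* genes with the highest counts in N2, several were high in N2 replicate 1 alone. *flp-9* had 13.1, 18.2 and 11.7 CPM in *set-2(tm1630)* and 94.1, 15.8 and 22.9 CPM in N2, so the groups overlapped. Its log2 fold change of -1.63 did not pass (adjusted p = 0.0875 by edgeR), and it was -0.44 without N2 replicate 1. *flp-14* had 13.8, 26.5 and 15 CPM in the mutant and 102, 9.96 and 20.04 CPM in N2, with N2 on both sides of the mutant, and a log2 fold change of -1.26 that turned to 0.29 without N2 replicate 1. *flp-15* likewise had 14.9, 34.6 and 16.5 CPM in the mutant and 88.9, 18 and 30.02 CPM in N2.

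*flp-24*, made in the ALA neuron with *flp-13* and *nlp-8* and known with them from stress-induced sleep, had 8.23, 11.1 and 11.8 CPM in *set-2(tm1630)*, against 74.6, 12.7 and 16.5 CPM in N2. *flp-27* had 13.2, 21.3 and 16.2 CPM in the mutant, against 117, 34.4 and 21.4 CPM in N2. In both genes every mutant library was below every N2 library, but neither passed (adjusted p = 0.0770 and 0.0581 by edgeR). *flp-2*, a neighbour of *flp-3* on chromosome X, had 2.13, 2.36 and 2.19 CPM in the mutant and 16.3, 3.21 and 4.01 CPM in N2, with no overlap and an adjusted p of 0.0655 by edgeR.

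*flp-17*, made in the BAG sensory neurons and also a ligand gene of EGL-6, did not follow the others in this experiment. It had 7.86, 10.9 and 7.31 CPM in *set-2(tm1630)* and 14.1, 1.58 and 6.93 CPM in N2, which enclosed the mutant, and the log2 fold change was 0.21 (SE 0.67). *flp-32* had 4.07, 10.2 and 6.21 CPM in the mutant and 34.2, 10.7 and 6.0 CPM in N2, again overlapping. The other 14 tested *flp* genes had log2 fold changes from -1.79 (*flp-33*) to 0.03 (*flp-6*), with adjusted p-values from 0.0707 to 0.964 by edgeR. The spread within groups was unequal. The median coefficient of variation of the *flp* genes was 27.4% in *set-2(tm1630)* and 88.1% in N2.

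The *flp* genes summed to 201, 335 and 227 CPM in *set-2(tm1630)*, against 1245, 333 and 351 CPM in N2. Only N2 replicate 1 was clearly above the mutant in this sum. In whole embryos, fewer cells of a type and less RNA per cell cannot be told apart. Pan-neuronal markers moved as well. Of 15 such genes 12 were tested, since *unc-10*, *unc-18* and *unc-119* were listed at 0 in every library. Beside backgrounds of 16.0% and 14.4%, 6 of the 12 were lower and 0 higher. Their summed level was 812 to 855 CPM in *set-2(tm1630)* and 1355 to 1525 CPM in N2, without overlap, and N2 replicate 1 had the highest level of the 6 libraries for 7 of the 12. Without 1 *set-2(tm1630)* library 0 to 2 of the 12 were lower, beside 0.889% to 1.40% of all genes. Markers of other tissues were lower as well, and 16.0% lower and 14.4% higher are the backgrounds of the counts below too. Of 4 tested muscle genes 3 were lower, with a median log2 fold change of -1.47 and sums of 1778 to 2017 CPM in *set-2(tm1630)* against 4751 to 5778 CPM in N2. Of 6 tested intestinal genes 2 were lower, with a median of -0.87 and sums of 776 to 791 CPM in *set-2(tm1630)* against 897 to 2273 CPM in N2. Without 1 *set-2(tm1630)* library none of these muscle or intestinal genes was called. Genes of maternal and early embryonic transcripts went the other way, with 13 of 16 tested genes higher and 0 lower and sums of 1026 to 1309 CPM in *set-2(tm1630)* against 53.5 to 147 CPM in N2. The part of these markers in the *flp* values was not tested.

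In *set-2(zr2012)* embryos no *flp* gene was called lower or higher by edgeR, of 26 tested. In this comparison 4.74% of all 16892 tested genes were called lower and 5.71% higher. At an unadjusted p under 0.05, 4 *flp* genes were lower and 0 higher, and DESeq2's Wald test called 3 lower, where it called 9.62% of all genes. All 26 log2 fold changes were negative, against 55.9% of all genes, with a median of -0.55 against -0.08 over all genes. In 3 of the 26 (*flp-10*, *flp-17* and *flp-25*) all mutant libraries lay below all N2 libraries, where 18.1% of all genes did so.

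*flp-1* had 89.5, 83.2 and 94.8 CPM in *set-2(zr2012)* and 157, 164 and 77.0 CPM in N2. *flp-14* had 29.5, 24.9 and 28.8 CPM in the mutant and 54.4, 56.5 and 25.2 CPM in N2, and *flp-15* had 24.8, 21.8 and 24.3 CPM in the mutant and 44.8, 44.9 and 18.4 CPM in N2. In all 3 genes the mutant was below N2 replicates 1 and 2, while N2 replicate 3 was within or under the mutant range. Sums over the family were 565, 481 and 576 CPM in *set-2(zr2012)*, against 954, 963 and 410 CPM in N2.

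*flp-18* had 41.1, 33 and 47.1 CPM in *set-2(zr2012)* and 72.6, 70.3 and 30.5 CPM in N2, and *flp-9* had 47.0, 35.9 and 44.3 CPM in the mutant and 64.8, 63.8 and 25.5 CPM in N2. *flp-24* had 34.6, 26.9 and 33.4 CPM in the mutant and 54.3, 56.2 and 21.3 CPM in N2. *flp-27* had 36.4, 37.1 and 38.6 CPM in the mutant and 51.6, 53.07 and 32 CPM in N2. In these 4 genes all mutant libraries stood between N2 replicate 3 and the other N2 libraries. *flp-2* did the same, with 8.54, 7.05 and 9.38 CPM in the mutant and 13.7, 13.7 and 4.15 CPM in N2, as did *flp-32*, with 8.19, 7.89 and 7.73 CPM in the mutant and 17.3, 17.9 and 7.19 CPM in N2. None of these 6 passed (adjusted p = 0.164 to 0.632 by edgeR). The other 14 tested *flp* genes had log2 fold changes of -0.79 (*flp-4*) to -0.15 (*flp-13*), with adjusted p-values from 0.0836.

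The largest changes were those of *flp-17* and *flp-3*. *flp-17* had 9.57, 7.89 and 8.79 CPM in *set-2(zr2012)* and 22.6, 20.4 and 9.76 CPM in N2, without overlap, and its log2 fold change of -1.0 (SE 0.32) did not pass (adjusted p = 0.0928 by edgeR). *flp-3* had 8.54, 9.0 and 8.64 CPM in the mutant and 19.9, 20.8 and 7.55 CPM in N2, with a log2 fold change of -0.88 (adjusted p = 0.171 by edgeR). *flp-10* was the gene with the smallest spread in N2, with 8.28, 6.85 and 6.78 CPM in the mutant and 10.01, 10.5 and 10.05 CPM in N2. Its N2 replicate 3 did not stand apart, its groups did not overlap, and its log2 fold change was -0.48 (SE 0.16, adjusted p = 0.0969 by edgeR).

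The call in this experiment turns on 1 library. Without N2 replicate 3, 26 of 26 *flp* genes were called lower, and 32.5% of all tested genes were too. The family median was then -0.89. *flp-1* had a log2 fold change of -0.85 (SE 0.07, adjusted p = 1.48e-06 by edgeR), and *flp-17* one of -1.30 (SE 0.11, adjusted p = 1.39e-06). With any other library left out 0 *flp* genes were called, and the share of all genes called lower was then 0.0300%, 0.0362% and 0.00% without *set-2(zr2012)* replicates 1, 2 and 3 and 0.175% and 0.156% without N2 replicates 1 and 2. N2 replicate 3 also had 726 CPM over the maternal and early embryonic genes, where the other N2 libraries had 139 and 151 CPM and *set-2(zr2012)* had 167 to 190 CPM. Its correlation with the other N2 libraries over log2 CPM was 0.944 to 0.946, against 0.995 between those. The part of these transcripts in its neuropeptide levels was not tested. Pan-neuronal markers summed to 2160 to 2310 CPM in *set-2(zr2012)* and 1854 to 1936 CPM in N2. Of 12 tested 0 were lower and 1 was higher (*unc-13*), beside 4.74% and 5.71% of all genes. The call of *unc-13* was lost with any library other than N2 replicate 3 left out, in the fit of all 12 libraries and with replicate number as a block. Without N2 replicate 3, 6 of the 12 were lower and 4 higher, beside 32.5% and 30.7% of all genes.

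The calls of the first experiment also varied with the libraries and the fit. Without *set-2(tm1630)* replicate 1, 2 or 3, 0 *flp* genes and only *nlp-16* among *nlp* genes were lower, and of all genes 0.889%, 1.40% and 1.36% were. Without N2 replicate 1, 2 *flp* and 9 *nlp* genes were lower, beside 15.7% of all genes. Without N2 replicate 2, 5 *flp* and 16 *nlp* genes were lower, beside 8.84%. Without N2 replicate 3, 13 *flp* and 21 *nlp* genes were lower, beside 26.3%. DESeq2's Wald test called 12 *flp* and 18 *nlp* genes lower, beside 20.4% of all genes, and all 12 libraries in 1 fit called 13 and 23, beside 25.96%. With no count filter 13 and 20 were lower, beside 12.2%, and 1 *flp* gene was higher, beside 8.82%. The *nlp* counts were above the background share in each of these settings that kept all *set-2(tm1630)* libraries. The *flp* counts were too, except without N2 replicate 1, where 2 of 26 were lower, beside 15.7%. Without 1 *set-2(tm1630)* library the *flp* count was 0 and the *nlp* count was *nlp-16* alone. Such counts cannot place either family above or below the background.

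**Figure D2:**
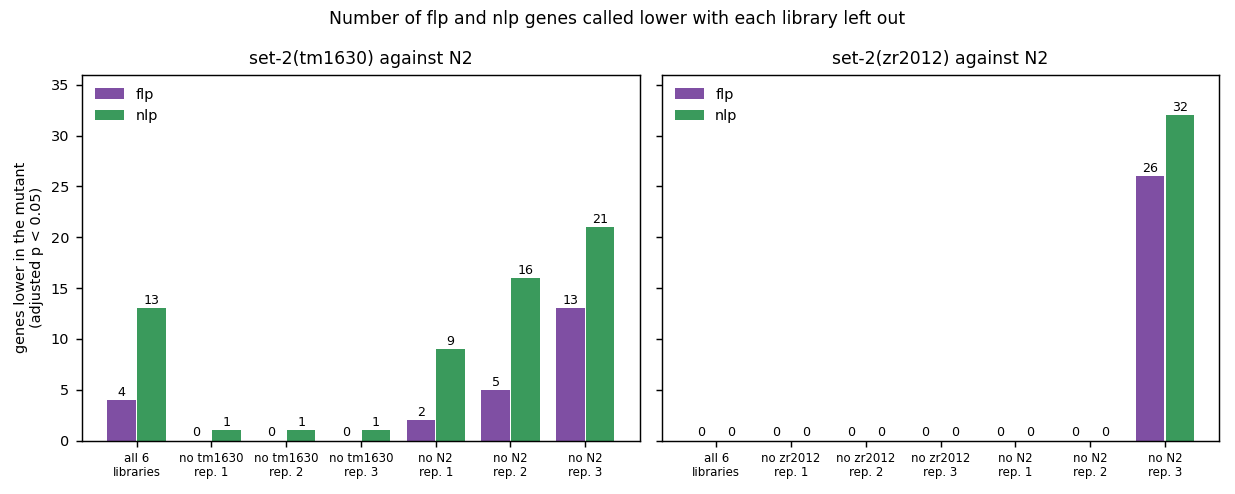
Number of *flp* (purple) and *nlp* (green) genes called lower in *set-2(tm1630)* (left) and *set-2(zr2012)* (right), with all 6 libraries and with each library left out in turn. Without a *set-2(tm1630)* library 0 *flp* genes and 1 *nlp* gene remained called, and without N2 replicate 3 of the second experiment 26 *flp* and 32 *nlp* genes were called.

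Of the 44 *nlp* genes 39 were tested in *set-2(tm1630)*, 13 were downregulated and 1 was upregulated. Set against the 16.0% of all genes called lower, the 13 of 39 are a larger share, and the 1 higher is below the background of 14.4%. The downregulated genes were *nlp-8*, *nlp-9*, *nlp-10*, *nlp-14*, *nlp-16*, *nlp-18*, *nlp-24*, *nlp-26*, *nlp-27*, *nlp-28*, *nlp-30*, *nlp-33* and *nlp-34*, and the upregulated one was *nlp-25*. The log2 fold change was negative for 37 of the 39, with a median of -1.30. In 17 of the 39 all mutant libraries lay below all N2 libraries, where 24.6% of all genes did so, and in 1 all lay above, where 25.8% did.

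**Figure D3:**
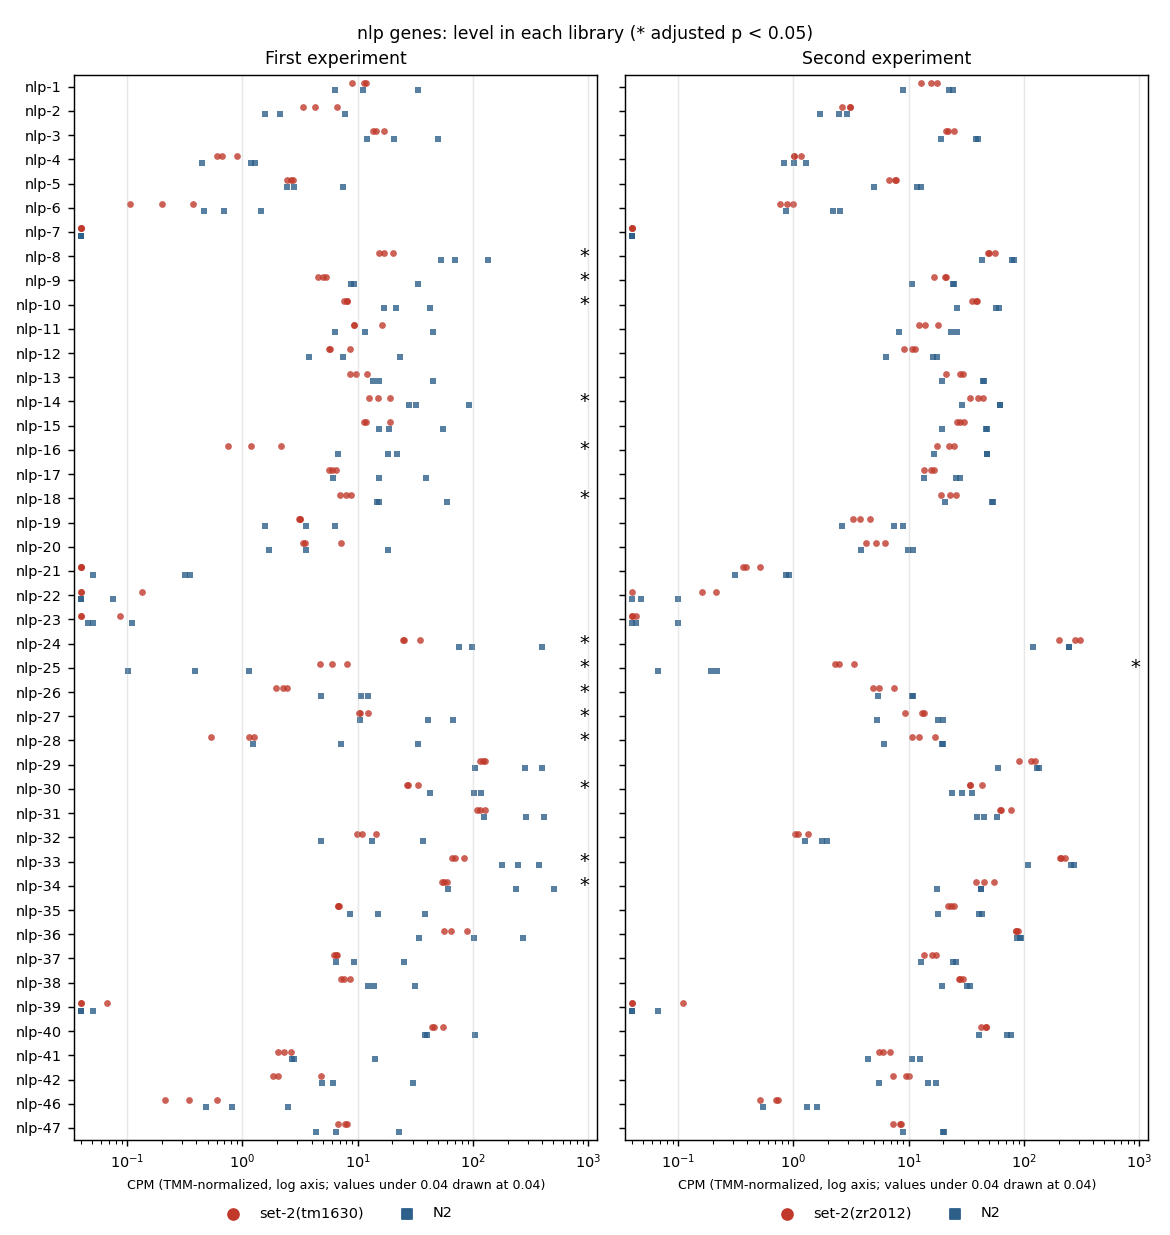
Level of each of the 44 *nlp* genes in CPM (log axis), drawn as for the *flp* genes with *set-2* mutant libraries in red and N2 libraries in blue. Stars mark 14 genes in the first experiment and *nlp-25* alone in the second.

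*nlp-16* had the largest decrease among *nlp* genes outside the epidermal group and was the only member called with each of the 6 libraries left out in turn. It had 0.746, 2.16 and 1.18 CPM in *set-2(tm1630)*, against 21.8, 6.83 and 18.3 CPM in N2. Every mutant library was below every N2 library, and the log2 fold change was -3.55 (SE 0.61, adjusted p = 0.00813 by edgeR), with a range of -3.99 to -3.22 over the fits without 1 library. The adjusted p stayed between 0.00591 and 0.0494 in those fits. *nlp-24*, which encodes opioid-like peptides, had 24.7, 34.9 and 25.1 CPM in the mutant and 394, 76.5 and 98.8 CPM in N2. Its groups did not overlap although N2 replicate 1 was far above the other N2 libraries, and its log2 fold change of -2.75 (SE 0.64, adjusted p = 0.0181) was -1.64 without that library (adjusted p = 0.00957).

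*nlp-8*, the third of the ALA sleep peptides, had 15.4, 20.5 and 17.1 CPM in *set-2(tm1630)* and 135, 52.9 and 69.8 CPM in N2. The log2 fold change was -2.28 (SE 0.40, adjusted p = 0.00873 by edgeR). Without N2 replicate 1 it was -1.80 (adjusted p = 0.00805), so the call did not rest on the high library. *flp-13*, of the same neuron, had 5.51, 9.71 and 5.75 CPM in the mutant and 26.1, 11.4 and 11.8 CPM in N2. It also showed no overlap, but its log2 fold change of -1.24 did not pass (adjusted p = 0.0707 by edgeR).

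*nlp-10* had 8.04, 8.09 and 7.65 CPM in *set-2(tm1630)*, against 42.8, 21.5 and 16.9 CPM in N2. Its mutant libraries were nearly equal and the log2 fold change was -1.77 (SE 0.41, adjusted p = 0.0181 by edgeR). *nlp-14* had 12.7, 19.3 and 15.1 CPM in the mutant, against 91.7, 32.1 and 28 CPM in N2. *nlp-18* had 7.06, 8.83 and 7.97 CPM in the mutant, against 59.2, 15.5 and 14.6 CPM in N2. Both were below N2 in every library, with log2 fold changes of -1.69 (adjusted p = 0.0355) and -1.90 (adjusted p = 0.0389). Without N2 replicate 1 they were -0.95 (adjusted p = 0.0439) and -0.93 (adjusted p = 0.0441). *nlp-9* had 4.53, 5.33 and 5.01 CPM in the mutant, against 33.6, 9.35 and 8.72 CPM in N2. Its groups did not overlap either, and its log2 fold change of -1.79 (adjusted p = 0.0448) was -0.88 without N2 replicate 1 and no longer passed (adjusted p = 0.0631).

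*nlp-25* was the only member called higher in *set-2(tm1630)*. It had 8.10, 4.72 and 6.04 CPM in *set-2(tm1630)*, from 304, 70 and 210 counts, against 1.14, 0.102 and 0.388 CPM in N2, from 25, 4 and 21 counts. Every mutant library was above every N2 library, and the log2 fold change was 3.59 (SE 0.78, adjusted p = 0.0153 by edgeR). In *set-2(zr2012)* it had 2.49, 2.31 and 3.33 CPM, from 58, 71 and 91 counts, against 0.0672, 0.217 and 0.192 CPM in N2, from 2, 5 and 8 counts. There the log2 fold change was 4.06 (SE 0.41, adjusted p = 0.00729 by edgeR). In the second experiment *nlp-25* passed the filter on low counts only through the mutant libraries, so a tested *nlp-25* had to be higher there, and this call adds no support to that of the first. Without a *set-2(zr2012)* library it fell under the filter. Without N2 replicate 3 its log2 fold change was 4.30, with the same limit. In the first experiment it was not called with any *set-2(tm1630)* library left out (adjusted p up to 0.0732).

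*nlp-26*, which lies near *nlp-25* on chromosome V with 1 protein-coding gene between them in the WBcel235 assembly, moved in the opposite direction. It had 2.24, 1.95 and 2.45 CPM in *set-2(tm1630)* and 12.2, 4.81 and 10.7 CPM in N2, a log2 fold change of -2.06 (SE 0.45, adjusted p = 0.0157 by edgeR) that was -1.80 without N2 replicate 1 (adjusted p = 0.0251). Both genes encode peptides of the same glycine-rich kind as the epidermal group, as do *nlp-24* and *nlp-32*. *nlp-32* had 11, 14.4 and 9.81 CPM in the mutant and 36.6, 4.79 and 13.3 CPM in N2, which overlapped.

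**Figure D4:**
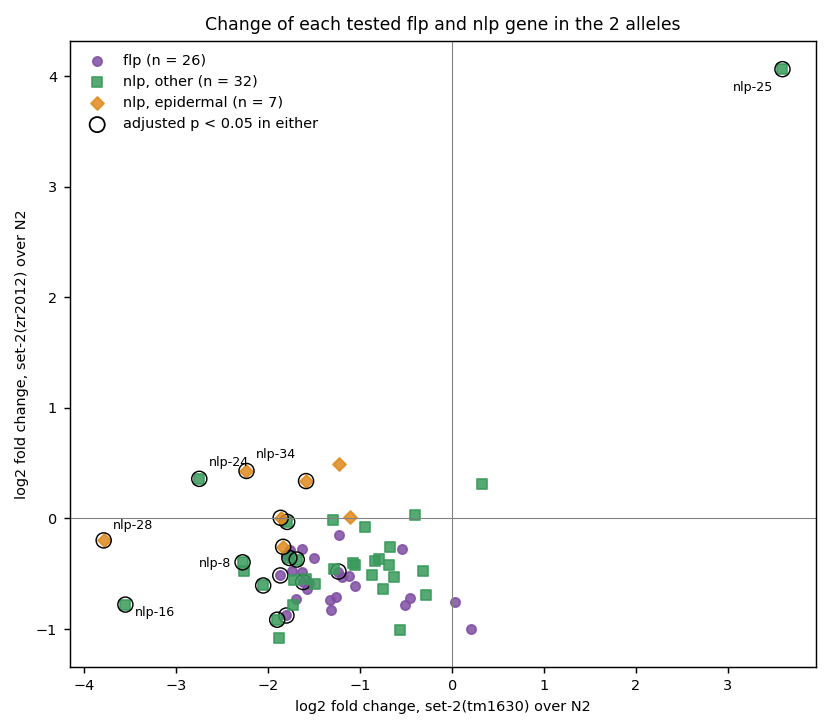
Log2 fold change in *set-2(tm1630)* (x axis) and in *set-2(zr2012)* (y axis), each over the N2 libraries of its own experiment, for the 65 members tested in both. Circles outline genes with an adjusted p under 0.05 in either allele. Most members are left of 0, *nlp-25* is the only one far above 0 on both axes (on the y axis it passed the filter on low counts only through the mutant libraries), and the epidermal *nlp* genes (orange) lie near 0 on the y axis.

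The epidermal group fell in *set-2(tm1630)* in 5 of its 7 tested members, *nlp-27*, *nlp-28*, *nlp-30*, *nlp-33* and *nlp-34*, and none rose. The background of genes called lower was 16.0%, as above. The count of 5 varied with the libraries, and was 0 without any 1 *set-2(tm1630)* library. Without N2 replicates 1, 2 and 3 it was 2, 7 and 4, beside 15.7%, 8.84% and 26.3% of all genes. All 7 log2 fold changes were negative and had an unadjusted p under 0.05, with a median of -1.84, against -1.18 over the 32 tested *nlp* genes outside the group, of which 8 were lower and 1 higher. *nlp-34*, *nlp-31*, *nlp-30*, *nlp-29*, *nlp-28* and *nlp-27* lie side by side on chromosome V, in this order, with no protein-coding gene between them in WBcel235. Their sequences are alike, so reads shared between them may have been counted on the wrong copy or left out, and the split of reads among them is uncertain.

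*nlp-33*, which lies outside that cluster, had 65.6, 83.4 and 69.998 CPM in *set-2(tm1630)* and 371, 180 and 247 CPM in N2. Its groups were far apart and its log2 fold change was -1.86 (SE 0.36, adjusted p = 0.0108 by edgeR), or -1.55 without N2 replicate 1 (adjusted p = 0.00943). *nlp-30* had 33.2, 27.2 and 27.1 CPM in the mutant and 102, 42.8 and 118.6 CPM in N2. It too had no overlap, with a log2 fold change of -1.59 (SE 0.40, adjusted p = 0.0233 by edgeR) that was -1.46 without N2 replicate 1 (adjusted p = 0.0417).

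*nlp-34* had 56.2, 59.5 and 53.9 CPM in *set-2(tm1630)* and 504, 61.3 and 235 CPM in N2. N2 replicate 2 was almost at the mutant level, and the log2 fold change was -2.24 (SE 0.66, adjusted p = 0.0360 by edgeR). *nlp-28* had 1.15, 0.539 and 1.27 CPM in the mutant and 33.5, 1.25 and 7.24 CPM in N2. It had the most negative value of all members, a log2 fold change of -3.79 (SE 1.07, adjusted p = 0.0321 by edgeR), but N2 replicate 2 lay within the mutant range. *nlp-27* had 12.3, 10.4 and 10.4 CPM in the mutant and 67.4, 10.4 and 40.8 CPM in N2, also with N2 replicate 2 at the mutant level, and a log2 fold change of -1.84 (adjusted p = 0.0478). Without N2 replicate 1 none of these passed. Their log2 fold changes were then -1.38 for *nlp-34* (adjusted p = 0.0784), -2.06 for *nlp-28* (adjusted p = 0.0800) and -1.21 for *nlp-27* (adjusted p = 0.126).

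The antimicrobial genes *nlp-29* and *nlp-31* did not pass. *nlp-29* had 127, 122.8 and 115 CPM in *set-2(tm1630)* and 281, 105 and 400 CPM in N2, with a log2 fold change of -1.11 (SE 0.47, adjusted p = 0.103 by edgeR). *nlp-31* had 115, 128 and 109 CPM in the mutant and 286, 126 and 416 CPM in N2, with a log2 fold change of -1.23 (SE 0.44, adjusted p = 0.0648 by edgeR). In both, N2 replicates 1 and 3 were above the mutant and N2 replicate 2 was not. The whole group summed to 410, 432 and 387 CPM in *set-2(tm1630)*, against 1645, 527 and 1464 CPM in N2. Of 13 other epidermis genes 8 were tested, as *elt-1*, *elt-3*, *nhr-23*, *dpy-10* and *sqt-3* were listed at 0 in every library. Of these 1 was lower (*che-14*) and 0 higher, beside backgrounds of 16.0% and 14.4%. All 8 log2 fold changes were negative, with a median of -1.14, against -0.21 over all genes. The 13 summed to 1657 to 2545 CPM in the mutant, and to 2734, 7402 and 4042 CPM in N2 replicates 1, 2 and 3. N2 replicate 2 was thus the highest N2 library in this sum and the lowest in that of the epidermal group. The part of these markers in the group's change was not tested.

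In *set-2(zr2012)* embryos none of the 40 tested *nlp* genes was called lower by edgeR and *nlp-25* alone was called higher, beside backgrounds of 4.74% lower and 5.71% higher. As said above, *nlp-25* passed the filter only through its mutant libraries, so the 1 higher call is not set against the background. At an unadjusted p under 0.05, 3 were lower and 2 higher. DESeq2's Wald test called 1 lower (*nlp-47*), where it called 9.62% of all genes. The median log2 fold change was -0.40, with 31 of the 40 negative. The 7 epidermal genes had a median of 0.02 and none was called. Without N2 replicate 3, 4 of the 7 were called lower, *nlp-27*, *nlp-28*, *nlp-29* and *nlp-33*, beside 32.5% of all genes. In that fit 1, *nlp-31*, was called higher, beside 30.7%. *nlp-33* had 209, 206 and 226 CPM in *set-2(zr2012)* and 255, 275 and 109 CPM in N2, and *nlp-29* had 116, 90.3 and 124 CPM in the mutant and 136, 131 and 59.7 CPM in N2. In both, N2 replicate 3 was below the mutant and the other N2 libraries above it, so their log2 fold changes of 0.01 and 0.02 average over libraries on either side.

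*nlp-31* was the epidermal gene with all mutant libraries above all of N2, where 18.9% of all tested genes had them so. It had 62.9, 62.4 and 76.9 CPM in *set-2(zr2012)* and 44.9, 39.6 and 58.8 CPM in N2, with a log2 fold change of 0.50 (SE 0.18, adjusted p = 0.119 by edgeR), and it was called higher without N2 replicate 3 (0.67, adjusted p = 0.00012). *nlp-30* had 34.1, 34.3 and 43.4 CPM in the mutant and 35.6, 29.1 and 23.8 CPM in N2, and *nlp-34* had 45.5, 38.2 and 54.7 CPM in the mutant and 42.7, 42.7 and 17.5 CPM in N2. These overlapped. *nlp-28* had 16.8, 10.7 and 12.4 CPM in the mutant, against 20.1, 19.6 and 6.19 CPM in N2, and *nlp-27* had 13.6, 9.32 and 13.2 CPM in the mutant, against 19.7, 18.1 and 5.37 CPM in N2. N2 replicate 3 was again the lowest of the 6 libraries in both. Other epidermis genes summed to 3391 to 4313 CPM in *set-2(zr2012)* and 2109 to 4949 CPM in N2. Of 8 tested 1 was lower (*lin-26*) and 0 higher, beside 4.74% and 5.71% of all genes. The log2 fold change was positive for 7 of the 8, with a median of 0.24.

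*nlp-16* had 22.6, 17.7 and 24.7 CPM in *set-2(zr2012)* and 47.8, 47.6 and 16.5 CPM in N2, a log2 fold change of -0.78 (adjusted p = 0.239 by edgeR). *nlp-47*, which encodes a peptide related to gonadotropin-releasing hormone, had 8.41, 7.28 and 8.68 CPM in the mutant and 19.8, 20.4 and 8.92 CPM in N2. Of the 40 tested *nlp* genes it alone had all mutant libraries below all of N2, where 18.1% of all genes did so. Its log2 fold change was -1.01 (SE 0.33, adjusted p = 0.0958 by edgeR). *nlp-6* had 0.987, 0.877 and 0.769 CPM in the mutant and 2.55, 2.21 and 0.863 CPM in N2, and *nlp-18* had 25.7, 18.9 and 22.7 CPM in the mutant and 53.5, 52.6 and 20.9 CPM in N2. Both overlapped through N2 replicate 3. Without that library 32 *nlp* genes were called lower, beside 32.5% of all genes. *nlp-31* was called higher, beside 30.7% of all genes. *nlp-25* was called higher too, but it passed the filter only through its mutant libraries and is not set against the background.

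Several *nlp* genes that were called in the first allele were not in the second. *nlp-24* had 278, 203 and 306 CPM in *set-2(zr2012)* and 247, 247 and 120 CPM in N2, with a positive log2 fold change of 0.36 (SE 0.30, adjusted p = 0.450 by edgeR). *nlp-8* had 49.2, 50.3 and 55.8 CPM in the mutant and 81.6, 79.7 and 43.4 CPM in N2, and *nlp-10* had 38.6, 35.3 and 39.2 CPM in the mutant and 61.2, 57.6 and 26.3 CPM in N2. The mutant stood between N2 replicate 3 and the other N2 libraries in both. *nlp-9* had 21.3, 16.7 and 20.6 CPM in the mutant and 24.9, 24.2 and 10.8 CPM in N2, and *nlp-14* had 40.1, 34.3 and 44.5 CPM in the mutant and 62.5, 62.4 and 29.1 CPM in N2. *nlp-26* had 7.46, 4.87 and 5.53 CPM in the mutant and 10.8, 11 and 5.39 CPM in N2. It overlapped N2 only through N2 replicate 3. In *set-2(tm1630)*, *nlp-6* had 0.107, 0.202 and 0.374 CPM, against 1.47, 0.688 and 0.462 CPM in N2, and *nlp-47* had 7.72, 6.74 and 8.14 CPM, against 22.8, 4.38 and 6.54 CPM in N2. Neither passed there, and only *nlp-6* was below N2 in every library (adjusted p = 0.0697 by edgeR).

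Among the *nlp* genes with the most counts in N2, 2 were not called in either allele. *nlp-36* had 89.3, 85.8 and 85.1 CPM in *set-2(zr2012)* and 93.0, 94.7 and 86.7 CPM in N2, and in *set-2(tm1630)* 56.6, 88.6 and 65.2 CPM, against 269, 102 and 34.4 CPM in N2. In the first experiment its log2 fold change was -0.95 (SE 0.64, adjusted p = 0.279 by edgeR). It was called lower there without N2 replicate 3, at -1.41 (adjusted p = 0.0328), and was near 0 without N2 replicate 1. In the second its log2 fold change was -0.08 (SE 0.09), and its N2 libraries were alike. *nlp-40*, which the intestine releases to time the defecation motor programme, had 44.5, 55.5 and 46.3 CPM in *set-2(tm1630)*, against 104.2, 38.1 and 39.8 CPM in N2. In the second experiment it had 46.9, 42.8 and 47.0 CPM in *set-2(zr2012)*, against 77.0, 71.7 and 41.1 CPM in N2. Its groups overlapped in both, with log2 fold changes of -0.32 (SE 0.43, adjusted p = 0.587 by edgeR) and -0.47 (SE 0.24, adjusted p = 0.227). In *set-2(zr2012)* it was called lower without N2 replicate 3, at -0.71 (SE 0.07, adjusted p = 6.81e-06). Outside the genes named here, 19 tested *nlp* genes had log2 fold changes of -2.27 (*nlp-42*) to 0.32 (*nlp-2*) in *set-2(tm1630)*, with adjusted p-values from 0.0513 by edgeR, and 20 had -0.79 (*nlp-46*) to 0.32 (*nlp-2*) in *set-2(zr2012)*.

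**Figure D5:**
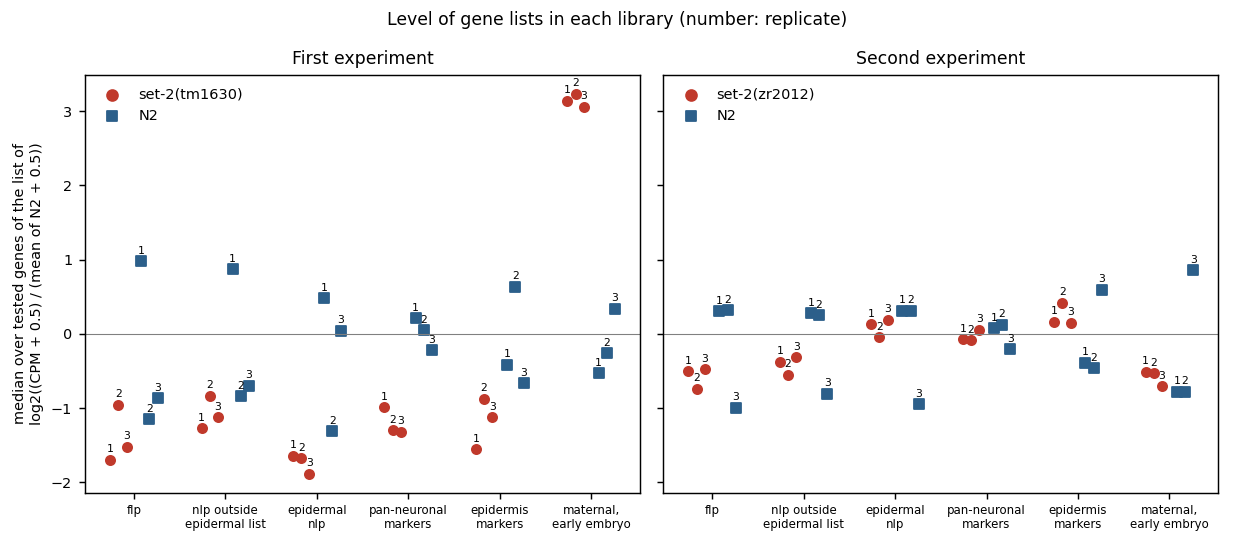
Median over the tested genes of a list of log2((CPM + 0.5) / (mean N2 CPM + 0.5)), for *set-2* mutant libraries (red circles) and N2 libraries (blue squares), numbered by replicate. In all 3 neuropeptide groups N2 replicate 1 is the highest N2 library of the first experiment, and N2 replicate 3 the lowest of the second. For the epidermal *nlp* genes of the first experiment it is N2 replicate 2 that lies apart (-1.31, against 0.48 and 0.04 in N2 replicates 1 and 3). The maternal and early embryonic genes are far above N2 in *set-2(tm1630)*.

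The change in the first allele was set against that in the second by an interaction term over all 12 libraries. No *flp* gene of 26 differed by edgeR, and 1 (*flp-18*) had an unadjusted p under 0.05. Of 40 *nlp* genes 8 differed, all with the lower value in *set-2(tm1630)*, where 11.7% of all genes tested differed in that direction and 11.8% in the other. They were *nlp-8*, *nlp-16*, *nlp-24*, *nlp-28*, *nlp-30*, *nlp-31*, *nlp-33* and *nlp-34*, so 5 of the 7 epidermal genes were among them. The differences, on the log2 scale, were -3.08 for *nlp-24* (adjusted p = 0.0135 by edgeR), -2.77 for *nlp-16* (adjusted p = 0.0185) and -1.91 for *nlp-30* (adjusted p = 0.0134). Each allele has its own N2 libraries and experiment, so the allele and the experiment cannot be told apart in this comparison. The number of *nlp* genes that differed ranged from 2 to 13 with 1 library left out. The epidermal count of 5 ranged from 1 to 7 over the same fits. With replicate number as a block it was 1 (*nlp-30*). The share of all genes in these fits was not counted.

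The machinery that makes the peptides was followed in 8 processing genes. *egl-3*, the convertase gene, was listed at 0 in every library, and of the 7 tested 2 were lower in *set-2(tm1630)* and none higher, beside the 16.0% of all genes called lower. This count was 0 without any 1 *set-2(tm1630)* library, beside 0.889% to 1.40% of all genes. It was 5 by DESeq2's Wald test, beside 20.4%, and 5 without N2 replicate 3, beside 26.3%. With no count filter it was 4, beside 12.2%, and with all 12 libraries in 1 fit 6, beside 25.96%. The 2 genes called lower by the main test both encode enzymes of peptide amidation. *pamn-1* had 50.2, 57.2 and 55.9 CPM in *set-2(tm1630)*, against 121, 191 and 169 CPM in N2. Its groups were well apart and N2 replicate 1 was the lowest of N2, with a log2 fold change of -1.56 (SE 0.30, adjusted p = 0.0104 by edgeR). *pghm-1* had 26.8, 52.2 and 32.5 CPM in the mutant and 135, 68.3 and 78.1 CPM in N2, with a log2 fold change of -1.34 (SE 0.39, adjusted p = 0.0351), or -0.99 without N2 replicate 1 (adjusted p = 0.0557). *egl-21*, the carboxypeptidase gene, had 53.9, 106 and 65.9 CPM in the mutant and 494, 129 and 136 CPM in N2. No library overlapped, and its log2 fold change of -1.75 did not pass (adjusted p = 0.0524 by edgeR).

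In *set-2(zr2012)* *kpc-1*, a gene of another proprotein convertase, was higher, with 324, 342 and 342 CPM, against 224, 228 and 257 CPM in N2 (log2 fold change 0.51, SE 0.10, adjusted p = 0.0282 by edgeR). It was the only processing gene called in this allele, and its N2 replicate 3 did not fall below the other N2 libraries. The backgrounds there were 4.74% lower and 5.71% higher. The call of *kpc-1* was lost with any library other than N2 replicate 3 left out (adjusted p of 0.106 to 0.140). It was also lost in the fit of all 12 libraries, with no count filter and with replicate number as a block. Without N2 replicate 3, 4 of the 7 were lower and 2 higher, beside 32.5% and 30.7% of all genes.

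Of 8 genes of dense-core vesicles 6 were tested, *unc-31* and *hid-1* being listed at 0. In *set-2(tm1630)* 2 of the 6 were lower and 0 higher, beside the 16.0% and 14.4% of all genes. *ida-1*, whose product is a membrane protein of these vesicles, had 86.6, 85.7 and 94.6 CPM in *set-2(tm1630)* and 223, 337 and 277 CPM in N2, a log2 fold change of -1.65 (SE 0.30, adjusted p = 0.00975). *cccp-1*, which acts in making the vesicles, had 42.0, 39.0 and 44.4 CPM in the mutant and 66.3, 90.8 and 66.1 CPM in N2, a log2 fold change of -0.83 (adjusted p = 0.0496). Neither was high in N2 replicate 1 alone. *cccp-1* was not called by DESeq2's Wald test, with DESeq2's size factors, with replicate number as a block or without N2 replicate 2. Nor was it called with any other count filter or none, and only *ida-1* was lower in these fits. Without any 1 *set-2(tm1630)* library neither was called. In *set-2(zr2012)* 0 of the 6 were lower and 1 was higher, *Y87G2A.11*, with 39.6 ± 1.93 CPM against 24.6 ± 0.681 CPM in N2 (SD, n = 3 each) and a log2 fold change of 0.69 (adjusted p = 0.0172 by edgeR), beside the 4.74% and 5.71% of all genes. That call was lost with any library other than N2 replicate 3 left out (adjusted p of 0.0748 to 0.107). It was also lost in the fit of all 12 libraries and with replicate number as a block. With N2 replicate 3 left out, 4 of the 6 were lower and *Y87G2A.11* higher, beside 32.5% and 30.7%.

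Receptors were counted over 89 rows of neuropeptide receptor families. In *set-2(tm1630)* 24 of 70 tested were lower and 0 higher, beside the 16.0% and 14.4% of all genes, with a median log2 fold change of -1.15. Without any 1 *set-2(tm1630)* library 0 were lower, and without N2 replicates 1, 2 and 3 there were 16, 12 and 38, beside 15.7%, 8.84% and 26.3% of all genes. In *set-2(zr2012)* 0 of 71 were called in either direction by edgeR, beside 4.74% and 5.71% of all genes, with a median of -0.35. At an unadjusted p under 0.05, 5 were lower and 0 higher. DESeq2's Wald test called 1 lower, where it called 9.62% of all genes. Leaving out N2 replicate 3 gave 46 of the 71 lower and 2 higher, beside 32.5% and 30.7% of all genes. The summed level of the 89 was 171 to 200 CPM in *set-2(tm1630)* and 274 to 485 CPM in N2, and 516 to 589 CPM in *set-2(zr2012)* and 414 to 737 CPM in N2. The groups of the first experiment did not overlap and those of the second did.

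The members that were not tested are 4 *flp* genes in both alleles and 5 *nlp* genes in *set-2(tm1630)*, 4 of them in *set-2(zr2012)*. *flp-8*, *flp-11* and *nlp-7* were listed at 0 in all 12 libraries. *act-1*, *act-4*, *tba-1* and *rpl-1*, which every cell uses, and 6 of 68 rows of ribosomal protein genes were listed at 0 as well, so a listed 0 is not read as absence of the transcript. *flp-12*, *flp-23*, *nlp-22*, *nlp-23* and *nlp-39* had at most 9 counts in any library. *nlp-21* had at most 1 count in a *set-2(tm1630)* library and up to 19 in N2, under the filter in that experiment.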

How the data were processed

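RNA-seq counts of 12 libraries were used. The authors mapped reads to WS220 (ce10 in the submitters' processing notes), accepting 2 mismatches, and deposited unnormalized counts per gene in a table for each library. Those notes name Trimmomatic 0.36.0, HTSeq 0.9.1 and DESeq2 2.1.8.3, and the aligner is not given in the sources used here. The TruSeq v2 kit does not mark strand, so reads of a gene and of its antisense partner cannot be told apart. Genes that reached 10 counts in 3 or more of an experiment's 6 libraries were kept, scaled by TMM and tested with edgeR 4.0.16 (limma 3.58.1, R 4.3.3), 3 mutant against 3 N2 libraries without a block, two-sided, at a Benjamini-Hochberg adjusted p under 0.05. The difference between alleles was an interaction over all 12 libraries. An exact permutation test of 3 against 3 cannot go below p = 0.1. The floor covers counting error only.

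Named members are those called, the epidermal *nlp* genes, and in each family and experiment those with the highest N2 CPM or the largest log2 fold changes. Members and lists were chosen with earlier results of these data known. Alternatives were DESeq2 1.42.0 (Wald test, or its size factors in edgeR), other filters, a single fit, a replicate block and each library left out. Names and neighbours come from RefSeq (WBcel235), where 71 of 74 members matched. Replicate 3 of *set-2(tm1630)* was taken from its title, since its description repeats that of replicate 1.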

Additional observations from a re-analysis of the deposited data

Results flagged for a closer look

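The change of 8 *nlp* genes differed between the alleles in the interaction test over all 12 libraries, with the lower value in *set-2(tm1630)* in each. The differences in log2 fold change, *set-2(tm1630)* minus *set-2(zr2012)*, were -1.86 for *nlp-8*, -2.77 for *nlp-16*, -3.08 for *nlp-24*, -3.54 for *nlp-28*, -1.91 for *nlp-30*, -1.72 for *nlp-31*, -1.84 for *nlp-33* and -2.63 for *nlp-34*. Their adjusted p-values were 0.0134 (*nlp-30*) to 0.0493 (*nlp-28*) by edgeR. The alleles were measured in separate experiments, so allele and experiment cannot be told apart.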

How the results depend on the processing

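The replicate numbers were not treated as pairs. The correlation of same-numbered deviations was -0.28 to -0.07 in the first experiment and -0.23 to 0.06 in the second. The means were below those of differently numbered libraries, but the ranges overlapped (-0.26 to 0.38 and -0.25 to 0.27 for the latter). With 3 libraries per group these values cannot decide whether same-numbered libraries were prepared together. Under a replicate block, 2 *flp*, 8 *nlp*, 7 receptor and 1 processing gene were lower in *set-2(tm1630)*, beside 8.854% of all genes, the *nlp* median was -1.08, 0 *nlp* genes were higher in *set-2(zr2012)*, beside 0.2368%, 1 *nlp* gene (*nlp-30*) differed between alleles, and *nlp-9* turned to 0.049 in *set-2(zr2012)*. DESeq2's Wald test called 12 *flp* genes lower in *set-2(tm1630)*, beside 20.4% of all genes, and 3 *flp* and 1 *nlp* lower in *set-2(zr2012)*, beside 9.62%. All 12 libraries in 1 fit called 13 *flp* and 23 *nlp* lower in *set-2(tm1630)*, and no count filter 13 and 20, with 1 *flp* higher and 1 *flp* that differed between alleles. With at least 10 counts required in every library *nlp-25* was not tested and 0 *nlp* genes were higher in either allele.

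With 1 library left out, genes lower in *set-2(tm1630)* ranged from 0 to 13 (*flp*) and from 1 to 21 (*nlp*), *nlp* genes higher from 0 to 1, and medians from -1.79 to -0.43 (*flp*) and from -1.59 to -0.80 (*nlp*). In *set-2(zr2012)* genes lower ranged from 0 to 26 (*flp*) and from 0 to 32 (*nlp*), *nlp* genes higher from 0 to 2, and medians from -0.89 to -0.38 (*flp*) and from -0.70 to -0.21 (*nlp*). Genes that differed between alleles ranged from 0 to 2 (*flp*) and from 2 to 13 (*nlp*).

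Signs turned for 4 genes of *set-2(tm1630)* without N2 replicate 1 and for *flp-17* without N2 replicate 2. With 1 library left out their log2 fold changes ranged from -1.75 to 0.29 (*flp-14*), from -1.41 to 0.014 (*nlp-36*), from -0.58 to 0.32 (*nlp-40*), from -0.97 to 0.46 (*nlp-47*) and from -0.29 to 1.02 (*flp-17*). In *set-2(zr2012)* they ranged from -0.34 to 0.16 (*nlp-9*), from -0.66 to 0.038 (*nlp-27*), from -0.59 to 0.046 (*nlp-28*), from -0.28 to 0.20 (*nlp-29*) and from -0.31 to 0.23 (*nlp-33*). There *nlp-29* was -0.016 and *nlp-33* -0.027 with all 12 libraries in 1 fit, and -0.018 and -0.027 with no count filter. The cause was not tested.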

Other observations

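Another 38 rows, listed under sequence names in the files, are *flp* or *nlp* genes by their RefSeq names. This group was chosen after the files had been seen and is outside the members above. Of these, 35 were tested. In *set-2(tm1630)* 7 were lower and 0 higher by edgeR, beside backgrounds of 16.0% and 14.4%, with a median log2 fold change of -1.14 and 33 of 35 negative. The 7 are listed as *nlp-49*, *flp-34*, *nlp-59*, *nlp-45*, *nlp-99*, *nlp-58* and *nlp-69* in RefSeq. In *set-2(zr2012)* 0 were lower or higher by edgeR, beside backgrounds of 4.74% and 5.71%. There 10 were lower and 0 higher at an unadjusted p under 0.05, with a median of -0.49 and 34 of 35 negative. The 38 rows summed to 143 to 207 CPM in *set-2(tm1630)*, and to 735, 237 and 198 CPM in N2 replicates 1, 2 and 3. N2 replicate 1 had the highest level of the 6 libraries for 34 of the 35, and N2 replicate 3 was within the mutant range in this sum. In the second experiment they summed to 325 to 369 CPM in *set-2(zr2012)*, and to 591, 595 and 277 CPM in N2 replicates 1, 2 and 3.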
